A study of Mus musculus with 11 samples.

Results

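The comparison described here is that of GNA11 Q209L tumours with and without a Bap1 knockout, read across all genes. Its members are the 7 libraries that the deposited genotype labels place in GNA11 Q209L Bap1 KO (5 libraries, called Bap1 KO here) or in GNA11 Q209L (2 libraries), of 11 libraries in the series. Each library is RNA sequencing of 1 end-point skin tumour from a C57BL/6 mouse, and both genotypes carry the GNA11 Q209L oncogene. The other 4 libraries, BRAF V600E Bap1 KO, entered the model only to help estimate the spread. Of 18756 mouse genes in the table, 17350 passed the expression filter and were tested. The labels name neither the promoter that drives the recombinase nor the Bap1 exons removed, and give no sex, age, litter or batch. The titles of Bap1 KO replicates 1 and 2 share an identifier (BG2218_T1 and BG2218_T3). Nothing in the labels says that the libraries came from separate animals, so p-values measure the spread between these samples.

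GNA11 is the alpha subunit of a Gq-type G protein. Its Q209L change blocks GTP hydrolysis and leaves the protein signalling through phospholipase C beta, RasGRP3 and the MAP kinases, and through Trio to YAP. The change is typical of uveal melanoma and blue naevi. BAP1 is a nuclear deubiquitinase that removes ubiquitin from histone H2A together with ASXL partners, opposing Polycomb repressive complex 1, and its loss marks uveal melanomas that metastasise. The question put by the comparison is which transcripts accompany Bap1 loss when the oncogene is the same.

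The targeted gene does not check the labels. Bap1 stood at 85.1 and 137 CPM (counts scaled by TMM to a common library size) in GNA11 Q209L replicates 1 and 2. In Bap1 KO replicates 1 to 5 it stood at 102, 130, 103, 102 and 170 CPM, within or above that range. The deposited transgene counts differed between the genotypes. The human GNA11-Q209L sequence stood at 22.9 and 125 CPM in GNA11 Q209L and between 6.51 and 17.4 CPM in Bap1 KO, so the groups did not overlap. CreERT2, the tamoxifen-dependent recombinase, stood at 85.6 and 129 CPM in GNA11 Q209L and between 181 and 326 CPM in Bap1 KO. The FLP recombinase sequence was above 36 CPM in Bap1 KO replicates 1, 2, 4 and 5 and at 0.0541 CPM or less in replicate 3 and in both GNA11 Q209L libraries.

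The same 3 libraries stand apart in Xist, the transcript that coats the silenced X chromosome. It stood at 358 and 198 CPM in GNA11 Q209L and at 695 CPM in Bap1 KO replicate 3, against 1.42 CPM or less in the other Bap1 KO libraries. Ddx3y and Kdm5d, encoded on the Y chromosome, stood at 0 CPM in these 3 libraries. In the other Bap1 KO libraries they stood at 1.27 to 18.3 CPM and at 0.415 to 8.33 CPM. High Xist without Y-linked counts is the pattern of female tissue. Sex and genotype were thus largely confounded in these 7 libraries. The FLP sequence divides the 7 libraries in the same way, so a covariate for the Xist level cannot tell the 2 apart among them. Melanocyte markers were abundant in all 7 libraries, and their sums did not overlap between the genotypes, at 67960 and 66710 CPM in GNA11 Q209L against 76460 to 99670 CPM in Bap1 KO. Of these 8 markers 1 was higher without overlap, and their median log2 fold change was 0.36. Markers of other cell types were uneven too. Summed fibroblast markers reached 11540 CPM in GNA11 Q209L replicate 1, 2885 CPM in replicate 2 and 371 to 2271 CPM in Bap1 KO. Summed macrophage markers reached 7771 CPM in GNA11 Q209L replicate 1 against 926 CPM in replicate 2 and 249 to 1292 CPM in Bap1 KO. Keratinocyte markers summed to 2096 CPM in Bap1 KO replicate 1 and to at most 17.0 CPM in every other library of these 7. The part of these differences in the results was not tested unless a value without the library stands beside them. Total counts ran from 18338082 to 69712229 per library, at which 3 counts correspond to 0.043 to 0.164 CPM.

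Most genes differed little between the genotypes and the differing ones leaned lower in Bap1 KO. The median log2 fold change (Bap1 KO over GNA11 Q209L) was -0.00406, and 90% of genes lay between -2.21 and 1.75. A difference of at least 2-fold was estimated for 1727 genes higher and 2831 lower in Bap1 KO, and of at least 4-fold for 716 and 1112. These sizes compare with the spread inside each genotype. Between the 2 GNA11 Q209L libraries the median absolute log2 difference was 0.67 and 33.0% of genes differed by more than 2-fold. Over the 10 pairs of Bap1 KO libraries the median was 0.36 to 0.76, and over the 10 pairs that cross the genotypes it was 0.46 to 0.81. The cross-genotype pairs were therefore hardly further apart than libraries of 1 genotype, and the median standard error of a fold change (0.55) exceeded the median absolute fold change (0.46).

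**Figure D1:**
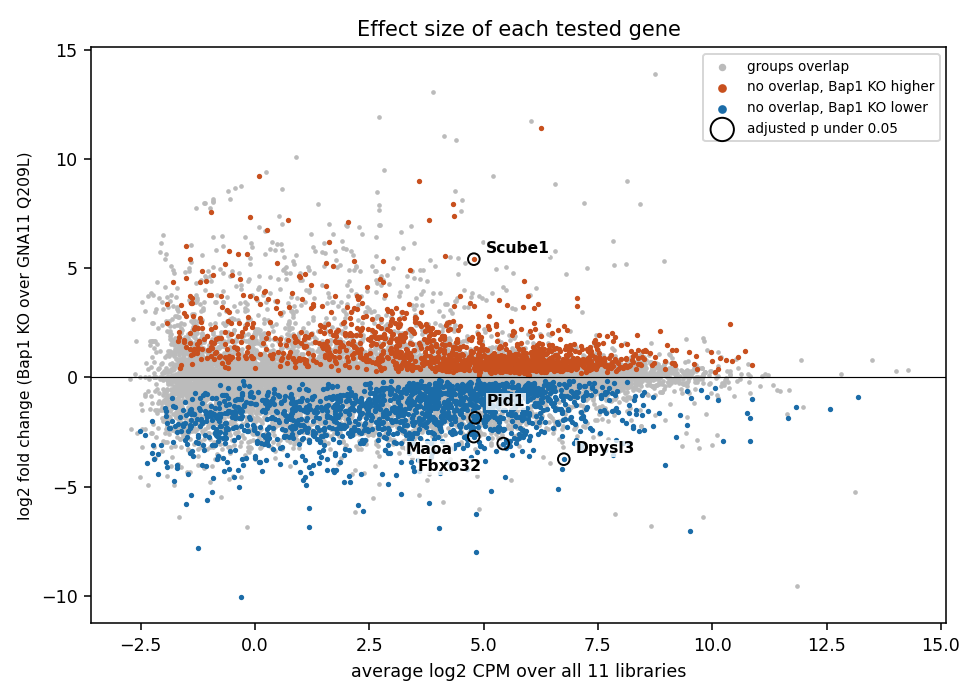
Each point is 1 of 17350 genes, with its average log2 CPM over the 11 libraries on the x axis and its log2 fold change (Bap1 KO over GNA11 Q209L) on the y axis. Orange and blue mark the 1314 and 1563 genes whose groups do not overlap, and circles mark the 5 genes with an adjusted p under 0.05, of which Scube1 alone lies above 0.

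In edgeR's quasi-likelihood test with Benjamini-Hochberg adjustment, 5 genes (0.0288% of those tested) passed an adjusted p of 0.05, with 1 higher (0.00576%) and 4 lower (0.0231%) in Bap1 KO. At an unadjusted p of 0.05 there were 666 higher (3.84%) and 1304 lower (7.52%), together 11.4% of genes. Groups that did not overlap, with every Bap1 KO library above or below both GNA11 Q209L libraries, were found for 1314 genes higher (7.57%) and 1563 lower (9.01%), together 16.6%. The median log2 fold change among these was 0.91 for those higher and -1.47 for those lower. The gap between the nearest libraries of the 2 genotypes was at least 2-fold for 120 of those higher and 217 of those lower. All 3 conditions together (no overlap, unadjusted p under 0.05 and at least 2-fold) held for 375 genes higher (2.16%) and 698 lower (4.02%), together 6.18%.

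Scube1, a secreted and membrane-bound protein with EGF-like repeats, rose in Bap1 KO. It stood at 1.15 and 1.16 CPM in GNA11 Q209L replicates 1 and 2 and at 61.5, 31.9, 51.6, 22.4 and 77.9 CPM in Bap1 KO replicates 1 to 5. Each Bap1 KO library was far above both GNA11 Q209L libraries, which were nearly equal. The log2 fold change was 5.40 ± 0.63 (SE; edgeR adjusted p = 0.0217). In BRAF V600E Bap1 KO tumours the gene ran from 9.79 to 20.0 CPM, between the 2 GNA11 genotypes.

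The 4 genes that fell were Dpysl3, Maoa, Fbxo32 and Pid1. Dpysl3, a cytoskeletal regulator of growth cones, stood at 122 and 254 CPM in GNA11 Q209L and at 18.1, 14.6, 16.2, 16.7 and 4.66 CPM in Bap1 KO replicates 1 to 5 (log2 -3.75 ± 0.43 SE, edgeR adjusted p = 0.0217). Maoa, the mitochondrial monoamine oxidase A encoded on the X chromosome, stood at 88.5 and 48.2 CPM and at 9.77, 11.7, 12.3, 7.52 and 10.7 CPM (log2 -2.71 ± 0.31 SE, edgeR adjusted p = 0.0217). With a covariate for the Xist level the log2 fold change of Maoa was -2.31 and its edgeR adjusted p 0.335. Fbxo32, the ubiquitin ligase subunit atrogin-1 and a FoxO target, stood at 168 and 106 CPM and at 20.9, 22.5, 16.5, 10.4 and 13.3 CPM (log2 -3.03 ± 0.41 SE, edgeR adjusted p = 0.0489). Pid1, an adaptor with a phosphotyrosine-binding domain, had the tightest groups, at 36.6 and 38.6 CPM against 10.4, 10.6, 10.4, 9.47 and 11.1 CPM (log2 -1.85 ± 0.25 SE, edgeR adjusted p = 0.0489). In BRAF V600E Bap1 KO tumours Dpysl3 ran from 157 to 235 CPM and Pid1 from 33.2 to 62.7 CPM, near GNA11 Q209L and far above Bap1 KO. Maoa ran there from 20.9 to 36.3 CPM, between the 2 GNA11 genotypes. Fbxo32 ran from 14.3 to 45.2 CPM, overlapping the Bap1 KO range. Under the 16 alternatives tried the log2 fold changes were 5.17 to 5.60 for Scube1 and -4.27 to -3.06 for Dpysl3. They were -3.01 to -2.29 for Maoa, -3.46 to -2.74 for Fbxo32 and -1.97 to -1.74 for Pid1. The calls were not as steady: without Bap1 KO replicate 4 only Scube1 of the 5 passed, without Bap1 KO replicate 5 or GNA11 Q209L replicate 1 only Dpysl3, without GNA11 Q209L replicate 2 only Maoa, and without any other library none. None of the 5 passed with edgeR when the libraries sharing an identifier were summed (adjusted p = 0.102 to 0.109) or with the Xist covariate (adjusted p = 0.252 to 0.335). With limma voom Dpysl3 and Maoa passed, while Scube1, Pid1 and Fbxo32 had adjusted p-values of 0.0888, 0.0768 and 0.0503. With RLE scaling or no filter Fbxo32 and Pid1 did not pass (edgeR adjusted p = 0.0509 to 0.0576).

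Beyond the calls, the genes with the widest gap between the genotypes were taken, 15 in each direction, and their values in each library are given as a description. Those higher in Bap1 KO are given first. Crmp1, a relative of Dpysl3 that mediates semaphorin signalling, stood at 0.628 and 0.891 CPM in GNA11 Q209L and at 15.4, 66.5, 15.7, 49.2 and 30.7 CPM in Bap1 KO (log2 5.55 ± 0.91 SE, edgeR adjusted p = 0.0662). Rap1gap, which switches off the GTPase Rap1, stood at 2.98 and 1.87 CPM and at 52.1, 81.2, 57.9, 32.6 and 31.2 CPM (log2 4.39, edgeR adjusted p = 0.133). Pde11a, a phosphodiesterase of cyclic nucleotides, stood at 8.08 and 17.6 CPM and at 123, 79.8, 161, 139 and 103 CPM (log2 3.24, edgeR adjusted p = 0.0867). In each of these 3 genes the lowest Bap1 KO library exceeded the highest GNA11 Q209L library several times over.

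The glutamate receptor subunit gene Grik2 stood at 6.67 and 17.3 CPM in GNA11 Q209L and at 74.7 to 190 CPM in Bap1 KO (median 97.4 CPM). Kcnc1, a fast voltage-gated potassium channel, stood at 8.89 and 5.30 CPM and at 58.4 to 131 CPM, and the calcium channel subunit gene Cacna2d1 at 6.59 and 1.74 CPM and at 23.6 to 82.1 CPM. The receptor phosphatase gene Ptprf stood at 16.8 and 21.7 CPM against 107 to 229 CPM, and the teneurin gene Odz4 at 14.7 and 3.88 CPM against 81.5 to 175 CPM. Gabra2, a GABA receptor subunit, had only 4 counts pooled over both GNA11 Q209L libraries and 1.41 to 16.6 CPM in Bap1 KO. Fibcd1, B3galt2, Arhgdig, Cachd1 and Casc5 complete the 15 with Scube1, at log2 fold changes of 5.34, 4.35, 4.13, 2.57 and 2.98. Apart from Scube1, none of the 15 passed the adjusted threshold.

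**Figure D2:**
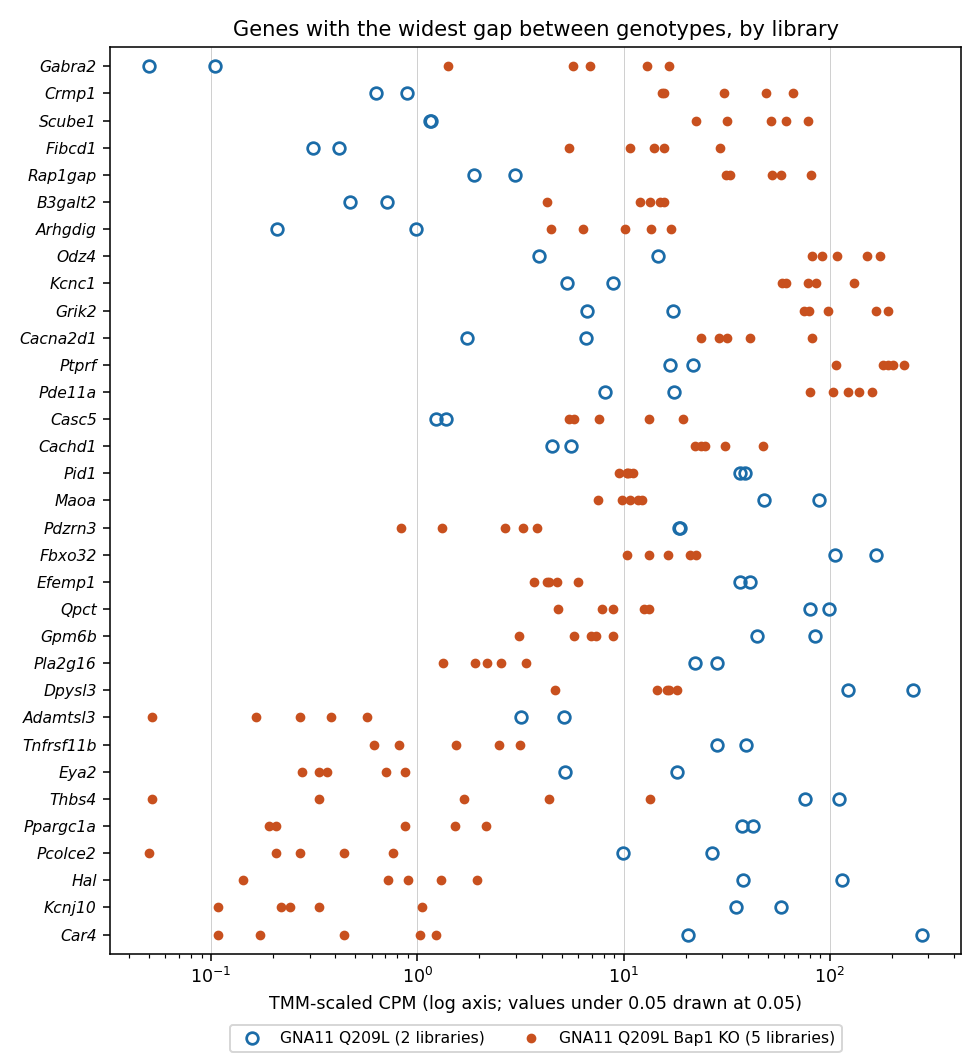
TMM-scaled CPM (log axis) of the 5 genes that passed the test and the 15 genes in each direction with the widest gap, 1 row per gene, with open blue circles for the 2 GNA11 Q209L libraries and orange points for the 5 Bap1 KO libraries. No row has overlapping groups; Scube1 lies at 22.4 to 77.9 CPM against 1.15 and 1.16 CPM, and Kcnj10 at 0.108 to 1.05 CPM against 35.0 and 57.7 CPM.

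Among the genes lower in Bap1 KO the widest gap belonged to Kcnj10, an inwardly rectifying potassium channel found in melanocytes and glia. It stood at 35.0 and 57.7 CPM in GNA11 Q209L and at 0.217, 0.332, 0.108, 1.05 and 0.242 CPM in Bap1 KO (log2 -6.89 ± 1.45 SE, edgeR adjusted p = 0.14). Ppargc1a, the coactivator PGC1-alpha that drives mitochondrial biogenesis and is a MITF target, stood at 37.4 and 42.3 CPM and at 0.868, 2.16, 1.51, 0.190 and 0.207 CPM (log2 -5.35, edgeR adjusted p = 0.254). The pair of GNA11 Q209L libraries was close for this gene, while the Bap1 KO libraries were all low and spread over an order of magnitude. Hal, the histidine ammonia-lyase, stood at 115 and 37.8 CPM against 0.143 to 1.95 CPM (log2 -6.25, edgeR adjusted p = 0.0997), and Car4, a membrane carbonic anhydrase, at 20.6 and 281 CPM against 0.108 to 1.24 CPM (log2 -8.00, edgeR adjusted p = 0.0662).

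Efemp1, a fibulin, stood at 41.1 and 36.7 CPM in GNA11 Q209L and at 4.23, 4.37, 3.68, 4.76 and 5.99 CPM in Bap1 KO. Tnfrsf11b, the decoy receptor osteoprotegerin, stood at 28.4 and 39.3 CPM against 0.619 to 3.15 CPM, and Thbs4, a thrombospondin, at 75.5 and 111 CPM against 0.0518 to 13.4 CPM. Pcolce2, an enhancer of procollagen cleavage, stood at 9.94 and 26.9 CPM against 0.0476 to 0.760 CPM. The groups of these 4 genes were well apart, and the part of the uneven fibroblast content in them was not tested. Pla2g16, Qpct, Eya2, Adamtsl3, Gpm6b and Pdzrn3 had log2 fold changes of -3.49, -3.24, -4.52, -3.88, -3.33 and -2.98. Across the 33 genes named by their gap or their call, none of 528 values under the alternatives had the opposite sign. In all of them the groups did not overlap, so the sign could hardly reverse. The count is therefore no check of these genes.

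Gene lists showed where the non-overlapping genes gathered. Every list count without overlap is to be read against the shares over all genes, 7.57% higher and 9.01% lower. For counts at an unadjusted edgeR p under 0.05 these shares are 3.84% and 7.52%. Of 34 lists, the largest shares higher in Bap1 KO were in mitosis (65.1% of members), homologous recombination and Fanconi repair (59.3%) and replication (38.9%), against 7.57% of all genes tested. Lower in Bap1 KO were matrix genes of fibroblasts (33.3%), chemokines (28.6%), neural crest genes (27.3%) and matrix proteases (26.1%), against 9.01% of all genes, among lists of 10 or more members. The members of a list are not independent of each other, and only Scube1, Dpysl3, Maoa and Fbxo32 among them passed the adjusted threshold. With a GNA11 Q209L library left out, groups separate more easily, and the share over all genes becomes 17.1% higher and 21.6% lower without replicate 1, and 21.2% and 25.6% without replicate 2.

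**Figure D3:**
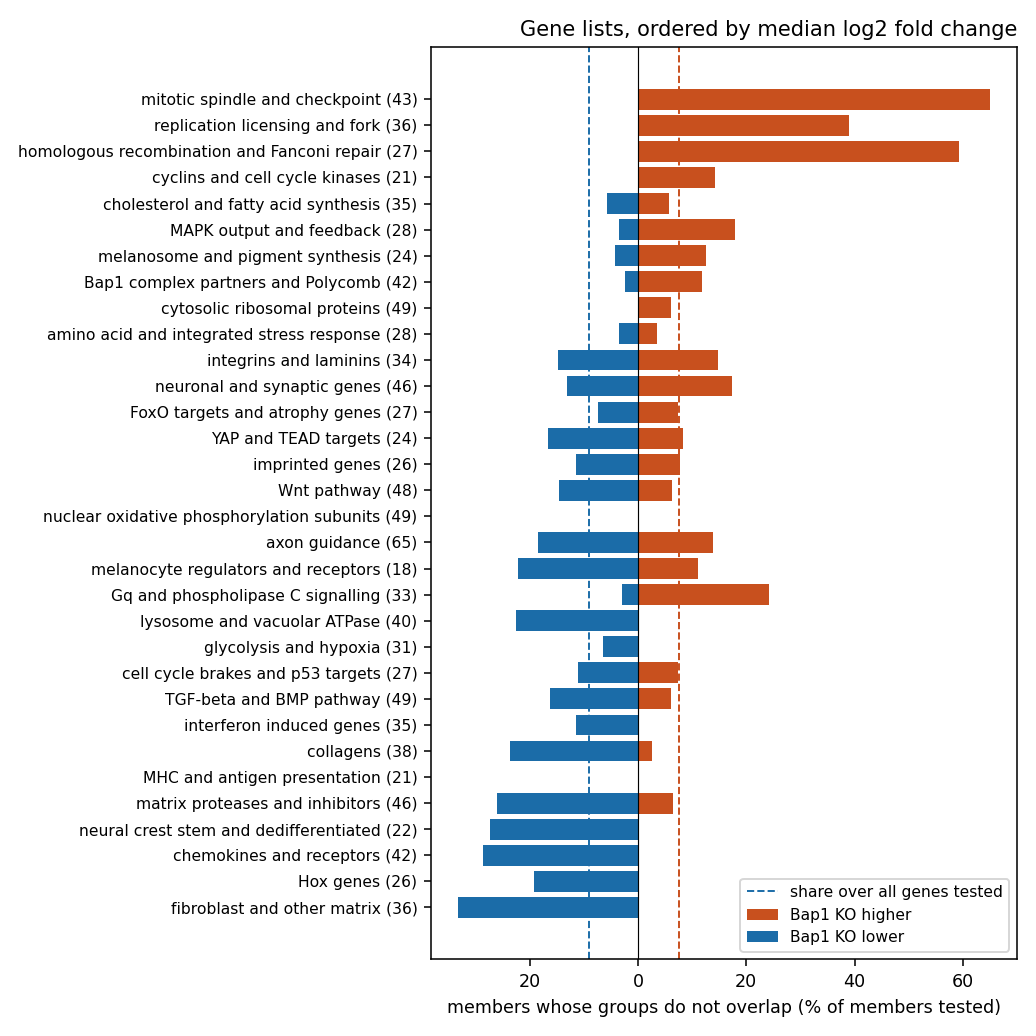
Share of the tested members of each gene list (number in brackets) whose groups do not overlap, with Bap1 KO higher to the right in orange and lower to the left in blue; lists are ordered by median log2 fold change and dashed lines mark the shares over all genes, 7.57% and 9.01%. The mitosis and recombination lists reach 65.1% and 59.3% on the higher side and have no member on the lower side.

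Genes of the mitotic spindle and its checkpoint lay higher in the Bap1 KO libraries as a group. Of 43 members, 28 had groups that did not overlap, all higher, and 39 had an unadjusted p under 0.05, all higher, where the shares over all genes were 7.57% and 3.84%. The median log2 fold change was 1.90 and no member was called after adjustment. Top2a, which untangles replicated DNA, stood at 13.8 and 11.8 CPM in GNA11 Q209L and at 116, 46.3, 40.6, 96.1 and 56.5 CPM in Bap1 KO (log2 2.47 ± 0.51 SE, edgeR adjusted p = 0.133). Prc1, which bundles the microtubules of the central spindle, stood at 10.2 and 13.6 CPM and at 65.5, 34.2, 24.1, 66.0 and 41.8 CPM (log2 1.96, edgeR adjusted p = 0.161). Kif4, a chromosome-bound kinesin, stood at 1.91 and 1.38 CPM against 4.60 to 20.6 CPM, and Tpx2, which activates Aurora A, at 9.65 and 14.2 CPM against 21.5 to 61.7 CPM. Bap1 KO replicate 1 was highest in each of these but Prc1 and replicate 3 was lowest in all 4, still above both GNA11 Q209L libraries.

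The mean of the mitotic list also separated the genotypes. The 2 GNA11 Q209L libraries averaged 2.10 and 2.42 log2 CPM, and the 5 Bap1 KO libraries 4.82, 4.18, 3.16, 4.50 and 3.93 log2 CPM. The lowest Bap1 KO library is replicate 3, the only Bap1 KO library high in Xist. With a covariate for the Xist level the median log2 fold change was 1.20, and it was 1.56 without GNA11 Q209L replicate 1 and 2.32 without replicate 2. The number of members without overlap was 42 without Bap1 KO replicate 3, 32 and 40 without GNA11 Q209L replicate 1 and 2, and 29 without any one of the other libraries. In bulk tumours a larger share of dividing cells and more of these transcripts per cell cannot be told apart.

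Promoters of the mitotic genes held certain motifs more often than promoters at large. These shares are a property of the list, use no expression value and say nothing about Bap1 KO. The cell cycle genes homology region, a motif with the core TTTGAA, and the CCAAT box are the elements through which mitotic genes are known to be kept silent in resting cells and turned on in G2. In RefSeq start windows (250 bases upstream, GRCm38.p6), 37 of the 43 genes had 39 windows. TTTGAA, on either strand, was in 16 of them (41.0%) against 16.0% of all 32841 windows, and CCAAT in 29 (74.4%) against 33.9%. Both were in 14 windows (35.9%, against 5.55%). The 100 bases upstream of the start are shown for 4 members with a small p among those that hold both within these bases. Capitals mark each core and each CCAAT on either strand (TTCAAA and ATTGG read the other strand).
Top2a (chr11:99024190-99024289, minus strand): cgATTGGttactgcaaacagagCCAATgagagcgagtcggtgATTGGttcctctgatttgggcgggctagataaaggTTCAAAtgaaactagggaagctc
Prc1 (chr7:80294376-80294475, plus strand): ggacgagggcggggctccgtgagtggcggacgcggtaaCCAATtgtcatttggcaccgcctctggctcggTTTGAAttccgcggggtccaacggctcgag
Kif11 (chr19:37376282-37376381, plus strand): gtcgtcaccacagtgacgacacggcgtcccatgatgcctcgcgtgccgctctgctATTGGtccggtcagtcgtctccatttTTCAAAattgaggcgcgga
Kif22 (chr7:127042421-127042520, minus strand): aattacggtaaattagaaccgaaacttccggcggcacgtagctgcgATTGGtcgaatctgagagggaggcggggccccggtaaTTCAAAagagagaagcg
In each of the 4 the core lies close to the start with a CCAAT box upstream of it, its first base being at position -23 from the start in Top2a, -30 in Prc1, -19 in Kif11 and -17 in Kif22. A match of letters is a description of these windows and no evidence that a factor binds there.

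DNA replication genes lay on the same side with smaller differences. Of 36 members, 14 had groups that did not overlap and 16 an unadjusted p under 0.05, all higher, with a median log2 fold change of 0.96. At that edgeR p 3.84% of all genes were higher. Rrm2, the inducible subunit of ribonucleotide reductase, stood at 6.12 and 14.8 CPM in GNA11 Q209L and at 79.9, 57.4, 20.7, 61.9 and 43.7 CPM in Bap1 KO (log2 2.33 ± 0.60 SE, edgeR adjusted p = 0.224). Its steady partner Rrm1 stood at 36.9 and 48.0 CPM and at 119, 91.5, 66.1, 105 and 91.3 CPM (log2 1.16, edgeR adjusted p = 0.2). Cdc6, which loads the replicative helicase, stood at 0.732 and 3.57 CPM against 5.19 to 12.2 CPM, and the ligase gene Lig1 at 19.4 and 32.8 CPM against 40.8 to 86.2 CPM. The count without overlap was 24 without Bap1 KO replicate 3, 25 without GNA11 Q209L replicate 2 and 12 to 19 without any one of the other libraries. The median was 0.60 with the Xist covariate.

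Replication promoters held another element more often than promoters at large. E2F-like letters (TTTGGCG or TTTCCCG or TTTGCCG or TTTCGCG on either strand), which resemble sites of the E2F factors that switch on S phase genes, were in 10 of 33 windows of 29 of the 36 genes (30.3%), against 5.51% of all windows and 4 of 39 mitotic windows (10.3%). TTTGAA was in 4 of the 33 (12.1%, against 16.0%). The 100 upstream bases of 2 members with a small p among those that hold an E2F-like match are shown with that match in capitals.
Chaf1a (chr17:56040316-56040415, plus strand): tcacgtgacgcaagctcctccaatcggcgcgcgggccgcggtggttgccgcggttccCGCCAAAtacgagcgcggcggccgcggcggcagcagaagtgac
Mcm6 (chr1:128359706-128359805, minus strand): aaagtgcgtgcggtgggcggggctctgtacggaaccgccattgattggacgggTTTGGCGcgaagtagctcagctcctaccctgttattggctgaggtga
Chaf1a encodes a chromatin assembly factor and Mcm6 a subunit of the replicative helicase, and the match begins at position -43 in the former and -47 in the latter. No statement about binding or about Bap1 KO follows from these letters.

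Repair by homologous recombination and the Fanconi pathway lay on the same side as the cell cycle genes. Of 27 members, 16 had groups that did not overlap and 14 an unadjusted p under 0.05, all higher, with a median log2 fold change of 0.93. Among all genes 3.84% were higher at that edgeR p. The checkpoint kinase gene Chek1 stood at 1.60 and 1.87 CPM in GNA11 Q209L and at 8.08, 3.70, 3.78, 8.14 and 6.15 CPM in Bap1 KO (log2 1.78 ± 0.49 SE, edgeR adjusted p = 0.249). The helicase gene Brip1 stood at 1.39 and 1.69 CPM against 2.76 to 9.60 CPM. The sensor kinase genes Atm and Atr, less tied to the cell cycle, stood at 8.79 and 9.72 CPM against 13.5 to 34.0 CPM and at 17.3 and 12.1 CPM against 18.4 to 33.5 CPM. The other 11 members overlapped, among them Brca1 at 192 and 99.2 CPM against 71.8 to 186 CPM, and 2 of the 27 had a log2 fold change below 0. Between 15 and 20 members had no overlap when any one library was left out.

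**Figure D4:**
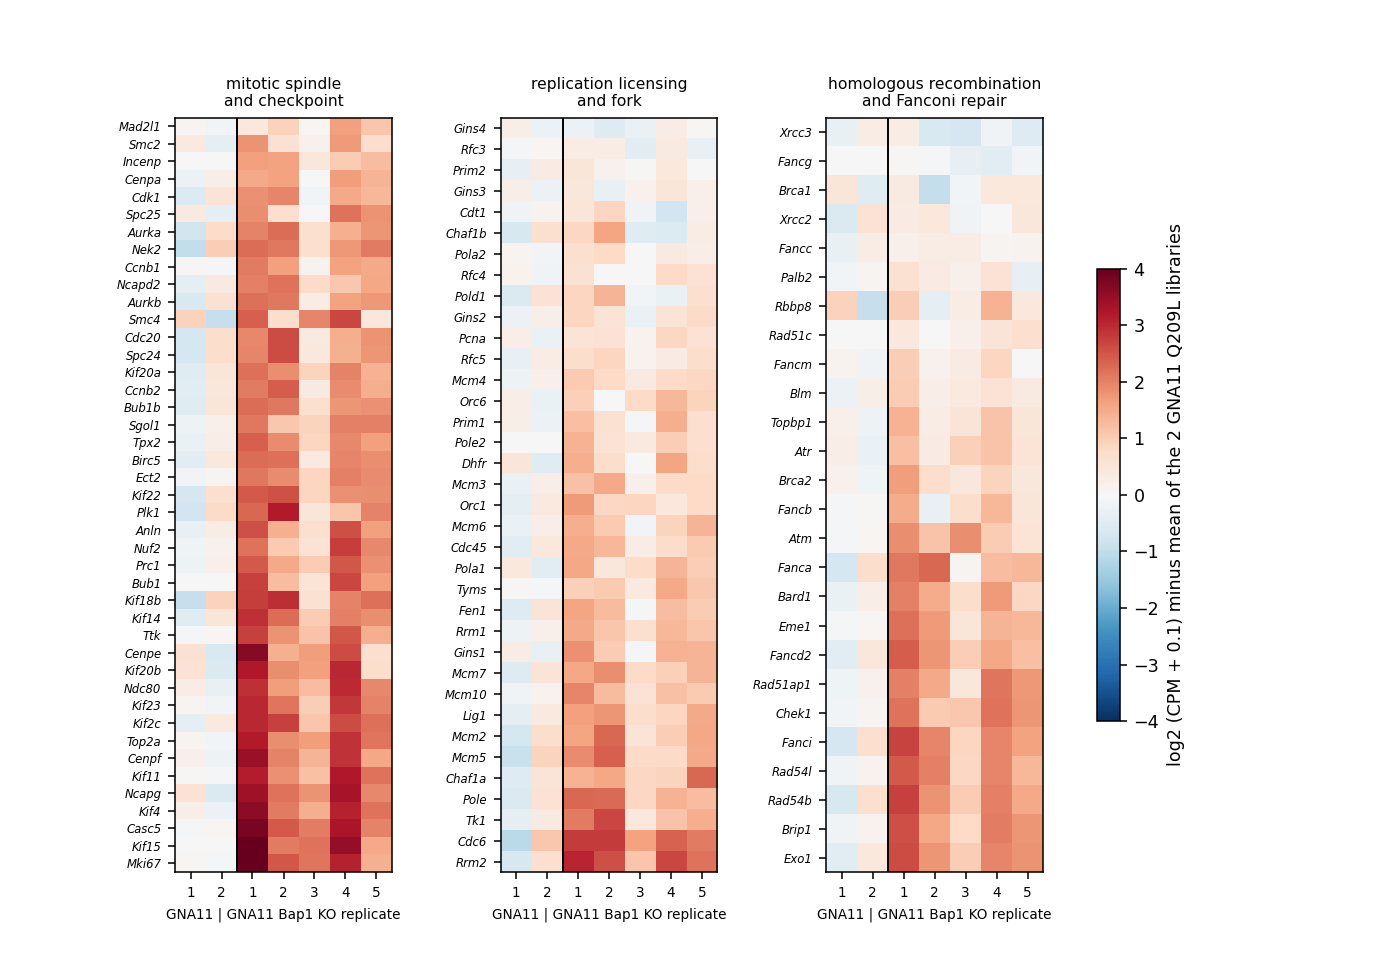
Heat maps of the members of the mitosis, replication and recombination lists (1 recombination member is not drawn), 1 row per gene and 1 column per library; colour gives log2 (CPM + 0.1) minus the mean of the 2 GNA11 Q209L libraries, red above and blue below. Bap1 KO replicate 3 is the palest of the 5 Bap1 KO columns in the mitosis panel, where its list mean is 3.16 log2 CPM against 3.93 to 4.82 in the other Bap1 KO libraries.

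Cyclins and the brakes of the cycle were less uniform. Of 21 cyclins and kinases 3 had no overlap, all higher: Ccne2 (1.91 and 0.891 CPM against 2.76 to 8.56 CPM), Ccna2 (6.51 and 12.0 CPM against 13.7 to 53.7 CPM) and the transcription factor gene Mybl2 (1.15 and 3.74 CPM against 3.89 to 10.2 CPM). Ccnd1, the D-type cyclin that responds to MAP kinase signalling, overlapped, at 308 and 1207 CPM against 1039 to 2111 CPM. Of 27 brakes and p53 targets 2 were higher and 3 lower without overlap, shares near those over all genes. Cdkn2a, which encodes p16 and Arf, stood at 32.3 and 47.0 CPM in GNA11 Q209L and at 12.1, 15.3, 27.8, 9.75 and 11.3 CPM in Bap1 KO (log2 -1.38 ± 1.31 SE, edgeR adjusted p = 0.755). Cdkn2c, which encodes p18, lay the other way at 24.5 and 30.0 CPM against 34.4 to 67.5 CPM, and so did the pocket protein gene Rbl1 at 18.8 and 12.3 CPM against 24.3 to 51.7 CPM.

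Genes of the Gq pathway itself, through which the oncogene signals, differed in both directions. Of 33 members 8 were higher without overlap (24.2%) and 1 was lower, whereas 4 were higher and 5 lower at an unadjusted edgeR p of 0.05. Over all genes 3.84% were higher and 7.52% lower at that p. The log2 fold change was below 0 in 22 of the 33, with a median of -0.32, or 0.23 without GNA11 Q209L replicate 1. Plcb4, the phospholipase C beta that is itself mutated in some uveal melanomas, stood at 26.7 and 13.9 CPM in GNA11 Q209L and at 369, 179, 304, 345 and 76.6 CPM in Bap1 KO (log2 3.65 ± 1.21 SE, edgeR adjusted p = 0.312). Rasgrp3, the exchange factor between diacylglycerol and Ras, stood at 205 and 131 CPM and at 661, 518, 393, 1096 and 546 CPM (log2 1.93 ± 0.64 SE, edgeR adjusted p = 0.309). Gnaq, the sister gene of Gna11, stood at 94.0 and 86.1 CPM against 106 to 147 CPM. The guanine nucleotide exchange factor genes Trio and Arhgef25 stood at 86.7 and 129 CPM against 145 to 200 CPM and at 41.0 and 69.7 CPM against 87.5 to 121 CPM. The member lower without overlap was Gna15, a G protein of blood cells, at 7.64 and 3.34 CPM against 0.666 to 2.98 CPM. The count of higher members was 8 without any one of the Bap1 KO libraries, 9 without GNA11 Q209L replicate 1 and 11 without replicate 2, when 13 members were lower.

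Of 28 genes of MAP kinase output and feedback, 5 were higher without overlap, 1 was lower, and none reached an unadjusted p of 0.05 with edgeR. The feedback inhibitor gene Spry4 stood at 18.5 and 44.3 CPM in GNA11 Q209L and at 58.2 to 89.6 CPM in Bap1 KO, and Myc at 31.0 and 82.7 CPM against 105 to 142 CPM. GNA11 Q209L replicate 1 was the lowest library in both genes. The median of the list was 0.33, -0.06 without GNA11 Q209L replicate 1 and 1.03 without replicate 2, so its sign rests on which of the 2 libraries is used. YAP and TEAD targets split, with 2 of 24 higher (8.33%, against 7.57% of all genes) and 4 lower (16.7%, against 9.01%) without overlap. Their median log2 fold change was -0.0029, but -0.31 without GNA11 Q209L replicate 1 and 0.68 without replicate 2. It was -0.43 without Bap1 KO replicate 5. Yap1 itself stood at 125 and 164 CPM against 183 to 312 CPM, whereas Axl, a receptor kinase of invasive melanoma cells, stood at 323 and 121 CPM against 60.6, 50.5, 55.1, 38.5 and 17.4 CPM (log2 -2.32 ± 0.55 SE, edgeR adjusted p = 0.196).

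The pigment programme was high in both genotypes, while some of its regulators differed, in both directions. Of 24 melanosome genes 3 were higher and 1 lower without overlap, and none reached an unadjusted p of 0.05 with edgeR. Of 18 melanocyte regulators and receptors 2 were higher (11.1%, against 7.57% of all genes) and 4 lower (22.2%, against 9.01%) without overlap. The rest of that list overlapped. Mitf, which encodes the factor that defines the melanocyte lineage, stood at 331 and 344 CPM in GNA11 Q209L and at 639, 359, 852, 1199 and 546 CPM in Bap1 KO, and Pax3, which activates it, at 89.8 and 114 CPM against 187 to 313 CPM. Ednrb, the endothelin receptor of melanoblasts, stood at 410 and 57.7 CPM and at 24.4, 25.6, 22.2, 24.2 and 20.1 CPM (log2 -3.33 ± 0.76 SE, edgeR adjusted p = 0.174). The Bap1 KO libraries were nearly equal for this gene and the GNA11 Q209L libraries far apart. The transcription factor gene Sox9 stood at 40.5 and 47.5 CPM against 4.38 to 13.4 CPM, and Sox5, which tempers Sox10, at 25.1 and 24.6 CPM against 3.65 to 13.1 CPM.

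Neural crest and dedifferentiation genes lay lower. Of 22 members 6 were lower without overlap and 0 higher, with a median log2 fold change of -0.94: Axl and Sox9, Aqp1 (579 and 241 CPM against 47.4 to 187 CPM), the homeobox gene Prrx1 (36.9 and 33.5 CPM against 3.21 to 13.3 CPM), Snai1 (8.06 and 6.64 CPM against 1.05 to 2.55 CPM) and Fn1 (226 and 540 CPM against 35.8 to 204 CPM). Several of these genes are also expressed by fibroblasts. The count was 12 without Bap1 KO replicate 1 or GNA11 Q209L replicate 1, and 6 to 8 without any one of the other libraries. The log2 fold change was below 0 in 18 of the 22 and above 0 in 4. The highest was that of Snai2, whose groups overlapped. It stood at 13.7 and 5.6 CPM in GNA11 Q209L against 9.56 to 40.7 CPM in Bap1 KO (log2 1.43, edgeR adjusted p = 0.354).

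Ligands and receptors of the TGF-beta family showed 8 of 49 members lower and 3 higher without overlap. These are 16.3% and 6.12%, against 9.01% and 7.57% of all genes. Tgfb3 stood at 29.7 and 31.0 CPM in GNA11 Q209L and at 8.74, 7.85, 14.9, 17.0 and 14.0 CPM in Bap1 KO (log2 -1.28, edgeR adjusted p = 0.235). The co-receptor gene Tgfbr3 stood at 84.3 and 75.0 CPM and at 29.8, 29.1, 33.8, 26.3 and 31.3 CPM (log2 -1.41, edgeR adjusted p = 0.235). The libraries of each genotype were close together for Tgfbr3, while Tgfb3 was more spread among the Bap1 KO libraries. Tgfb2 stood at 11.1 and 3.34 CPM against 0.939 to 2.43 CPM. Scube1, itself in this list as a modulator of BMP signals, was the largest difference in the other direction. Among 48 Wnt genes 7 were lower and 3 higher without overlap (14.6% and 6.25%, against 9.01% and 7.57% of all genes). Among them the antagonist gene Sfrp4 was lower (1.57 and 1.96 CPM against 0 to 0.757 CPM). The feedback gene Nkd1 was higher (3.50 and 4.19 CPM against 6.82 to 14.4 CPM).

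Axon guidance and synaptic genes differed in both directions. Of 65 guidance genes 9 were higher and 12 lower without overlap, shares of 13.9% and 18.5%. The collapsin response mediator family was divided: Crmp1 and Dpysl4 (0.549 and 0.357 CPM against 1.73 to 10.5 CPM) were higher, and Dpysl3 fell. Nrp2, a co-receptor of semaphorins and lymphatic growth factors, stood at 155 and 221 CPM in GNA11 Q209L and at 29.7, 31.0, 49.6, 16.9 and 18.7 CPM in Bap1 KO (log2 -2.69 ± 0.62 SE, edgeR adjusted p = 0.179). Of 46 neuronal genes 8 were higher, among them the scaffold gene Dlg4 (17.6 and 11.1 CPM against 41.0 to 77.8 CPM), and 6 were lower, among them Maoa and its relative Maob (1.62 and 0.758 CPM against 0.138 to 0.608 CPM). Of 6 lymphatic endothelium markers tested 1 was higher and 2 were lower without overlap, with a median log2 fold change of -1.43. The one higher was the homeobox gene Prox1, at 2.20 and 2.72 CPM against 6.30 to 14.2 CPM. The lower ones were Lyve1, at 3.06 and 15.7 CPM against 0.0553 to 2.70 CPM, and Mmrn1, at 2.56 and 3.74 CPM against 0 to 1.25 CPM.

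Genes of the extracellular matrix lay lower in Bap1 KO, beside the uneven fibroblast content. Of 36 matrix genes 12 were lower without overlap and 17 had an unadjusted p under 0.05, all lower, with a median log2 fold change of -2.31 that was -0.79 without GNA11 Q209L replicate 1. At that edgeR p 7.52% of all genes were lower. Dcn, the collagen-binding proteoglycan decorin, stood at 645 and 182 CPM in GNA11 Q209L and at 50.1, 26.4, 14.2, 33.6 and 3.85 CPM in Bap1 KO (log2 -4.01 ± 0.80 SE, edgeR adjusted p = 0.131). Among 38 collagens 9 were lower and 1 higher, with Col3a1 at 4363 and 879 CPM against 95.5 to 728 CPM and Col6a1 at 882 and 381 CPM against 55.0 to 226 CPM. The exception was Col10a1, at 1.67 and 1.20 CPM against 4.39 to 12.0 CPM. None of the 11 fibroblast markers was at 0 in all 7 libraries, and 5 of them were lower without overlap. The matrix count was 25 without GNA11 Q209L replicate 2, 17 without GNA11 Q209L replicate 1 or Bap1 KO replicate 1, and 13 or 14 without any one of the other libraries.

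Proteases and adhesion receptors were divided by gene. Of 46 matrix proteases and inhibitors 12 were lower and 3 higher without overlap. Mmp3, stromelysin 1, stood at 621 and 372 CPM in GNA11 Q209L and at 131, 84.9, 66.4, 9.04 and 13.4 CPM in Bap1 KO (log2 -3.03, edgeR adjusted p = 0.272). Mmp16, a membrane-type protease of melanocytic cells, lay the other way at 37.6 and 30.8 CPM against 160, 79.0, 110, 146 and 135 CPM, as did Adam12 at 13.7 and 35.8 CPM against 64.2 to 169 CPM. Among 34 integrins and laminins 5 were higher and 5 lower. The 2 partners of the vitronectin receptor parted, with Itgav at 114 and 154 CPM against 177 to 314 CPM and Itgb3 at 129 and 415 CPM against 29.8 to 100 CPM. Of 40 lysosomal genes 9 were lower and 0 higher without overlap, with the cathepsin genes Ctsd at 21700 and 11770 CPM against 2642 to 9976 CPM and Ctsb at 12090 and 5521 CPM against 2232 to 5339 CPM.

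**Figure D5:**
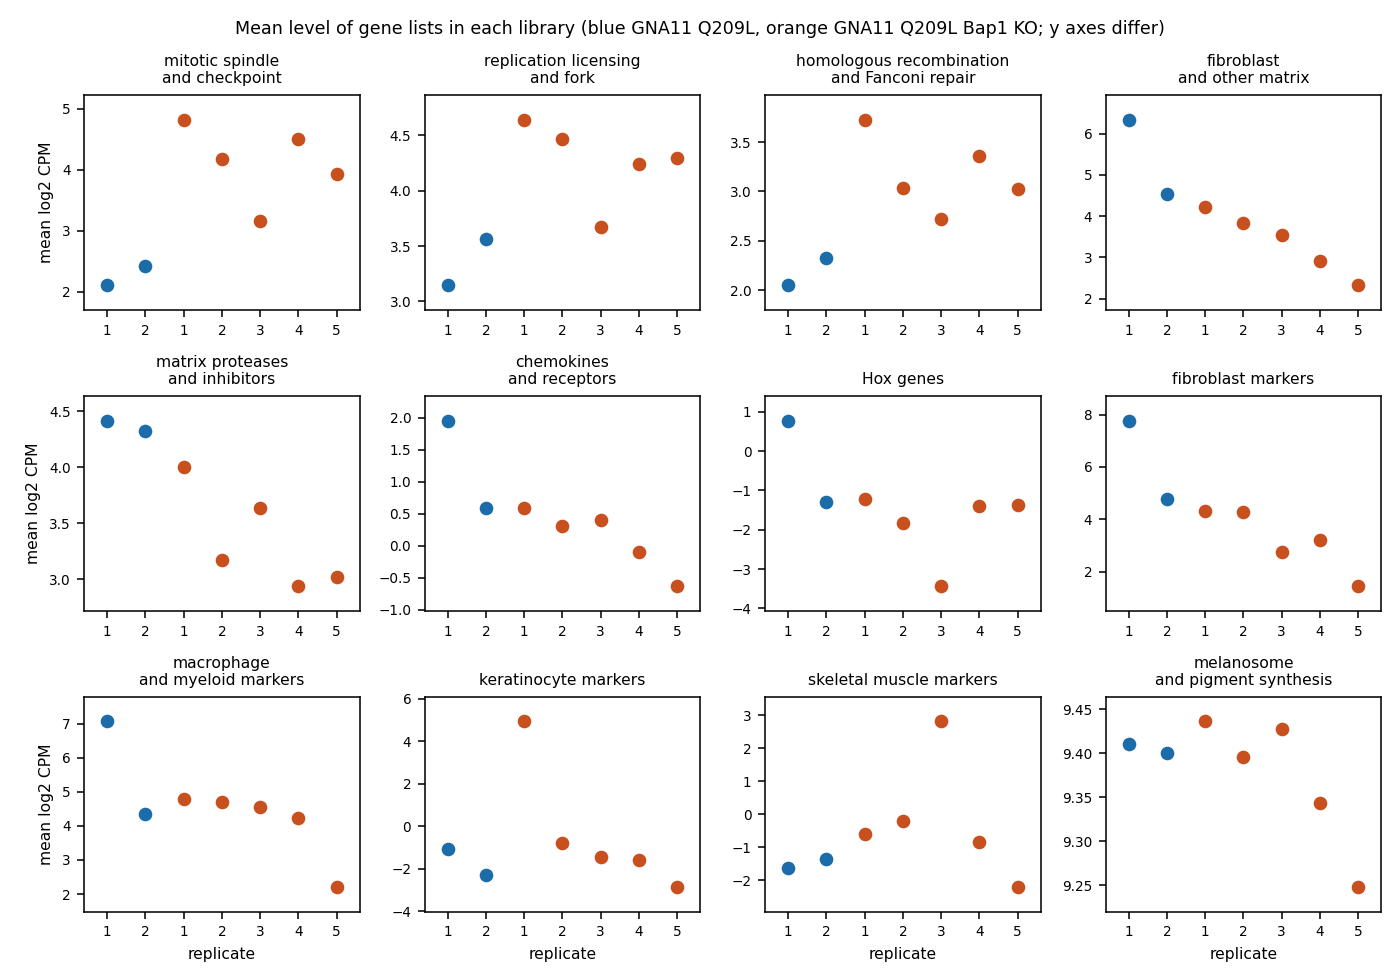
Mean log2 CPM of 12 gene or marker lists in each library, blue for GNA11 Q209L replicates 1 and 2 and orange for Bap1 KO replicates 1 to 5, with a y axis of its own in each panel. Mitotic means are 2.10 and 2.42 in GNA11 Q209L and 3.16 to 4.82 in Bap1 KO, while fibroblast marker, macrophage, chemokine and Hox means are highest in GNA11 Q209L replicate 1; in replicate 2 the fibroblast marker mean is 4.77, above the Bap1 KO range of 1.45 to 4.33.

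Chemokines and Hox genes were lower chiefly against GNA11 Q209L replicate 1. Of 42 chemokine genes 12 were lower and 0 higher without overlap, with a median log2 fold change of -1.30 that was -0.16 without GNA11 Q209L replicate 1 and -1.75 without replicate 2. Cxcl12, the ligand of Cxcr4, stood at 436 and 91.5 CPM in GNA11 Q209L and at 30.4, 57.8, 25.4, 19.8 and 28.3 CPM in Bap1 KO (log2 -3.03, edgeR adjusted p = 0.207). Of 26 Hox genes 5 were lower without overlap, with a median of -1.96 that was -0.68 without GNA11 Q209L replicate 1. Their levels were low, with list means of 0.77 and -1.29 log2 CPM in GNA11 Q209L and -3.44 to -1.23 in Bap1 KO. The mean of GNA11 Q209L replicate 2 thus lay within the Bap1 KO range. Hoxb13, the most posterior gene of its cluster, stood at 2.77 and 1.83 CPM against 0 to 0.718 CPM, and Hoxa7 at 3.35 and 1.83 CPM against 0.108 to 1.09 CPM.

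Partners of BAP1 and Polycomb proteins differed little. Of 42 members 5 were higher and 1 lower without overlap, with a median log2 fold change of 0.27. Asxl1, the cofactor that activates BAP1, stood at 65.9 and 79.3 CPM in GNA11 Q209L and at 81.3 to 114 CPM in Bap1 KO. Ezh2, the methyltransferase of Polycomb repressive complex 2, overlapped at 12.3 and 20.3 CPM against 18.1 to 48.1 CPM. Of the chromobox genes of Polycomb repressive complex 1, Cbx2 (4.52 and 10.3 CPM against 11.9 to 15.3 CPM) and Cbx8 (5.96 and 6.73 CPM against 8.36 to 13.0 CPM) were higher and Cbx7 (57.3 and 39.5 CPM against 16.1 to 35.4 CPM) was lower, with unadjusted edgeR p-values of 0.0492, 0.226 and 0.157. Epas1, the hypoxia-inducible factor 2 alpha, was a member of the hypoxia list with a wide gap: 697 and 525 CPM in GNA11 Q209L and 131, 92.9, 73.3, 85.5 and 141 CPM in Bap1 KO (log2 -2.54 ± 0.56 SE, edgeR adjusted p = 0.161). Of the 31 members of that list 2 had groups that did not overlap, the other being Hif1a (285 and 260 CPM against 129 to 226 CPM).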

How the data were processed

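The authors deposited 1 table of estimated counts per gene, made from aligned reads and not normalised, with the 11 libraries as columns. The submitters' processing notes name STAR and mm9; no source used here gives the counting program, the annotation or the use of strand. Gene values were whole numbers. Of 18769 lines with an ID, 7 repeated lines with identical values and 6 transgene sequences were left out of the gene tests, and 18756 mouse genes remained. The transgene sequences are given on the same CPM scale.

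All 11 libraries were fitted in edgeR 4.0.16 (R 4.3.3) with the quasi-likelihood test, TMM scaling, the default filter by genotype, and no term but genotype, which lets the small GNA11 Q209L group borrow its spread from the rest. Two-sided p-values were Benjamini-Hochberg adjusted over 17350 genes. CPM values are TMM-scaled, fold changes carry a standard error (SE), and floors cover counting error only. Overlapping and antisense genes, and near-identical copies, may share reads. The scripts were tested on simulated data. Alternatives were DESeq2 1.42.0, limma 3.58.1 (voom), other scaling and filters, the 2 genotypes alone, the libraries sharing an identifier summed, an Xist covariate, and each library left out.

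Named genes were those with an adjusted p under 0.05, the 15 each way with the widest gap on the log2 CPM scale (prior count 2, unadjusted p under 0.05, average log2 CPM of at least 2), and up to 4 members of each of 34 lists with the smallest p. Other members named were chosen after their values were seen, and some list members are not reported here. Of 1174 entries of the gene lists and 17 marker lists, 1146 were in the table. The comparison, members and lists were chosen with earlier results of these data known. Promoter windows are from RefSeq (GRCm38.p6), while no mm9 annotation was used, so no gene positions are given for the counts.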

Additional observations from a re-analysis of the deposited data

Results flagged for a closer look

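Among the 5 Bap1 KO libraries, 1 library lay far from the other 4 in 8 of 84 values checked (33 named genes and 51 gene or marker lists); chance alone sets about 1 in 20 such groups apart. Kcnj10 stood at 1.05 CPM in replicate 4 against 0.108 to 0.332 CPM in the others, and Dpysl3 at 4.66 CPM in replicate 5 against 14.6 to 18.1 CPM. Replicate 1 was high in the mean of the Wnt list (1.92 log2 CPM against 1.14 to 1.36), of integrins and laminins (4.88 against 4.04 to 4.26) and of keratinocyte markers (4.93 against -2.86 to -0.77). Replicate 4 was low in lysosomal genes (7.53 log2 CPM against 8.39 to 8.70), replicate 3 in Hox genes (-3.44 against -1.83 to -1.23), and replicate 5 in macrophage markers (2.21 against 4.24 to 4.80).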

How the results depend on the processing

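The count of calls depended on the processing. Calls higher and lower were 227 and 215 with DESeq2, 15 and 45 with edgeR on the 2 genotypes alone, 1 and 2 with RLE scaling or with no filter, and 0 and 0 with edgeR when the libraries sharing an identifier were summed or when the Xist covariate was added (at an unadjusted p under 0.05 these fits gave 642 and 1098, and 487 and 822 genes). With 1 library left out they ran from 0 to 1 and from 0 to 3. Genes at an unadjusted p under 0.05 were 1030 higher with DESeq2, and ran from 430 to 740 higher and from 490 to 1404 lower with 1 library left out, the lowest of each without GNA11 Q209L replicate 1. Genes without overlap ran from 1353 to 3681 and from 1830 to 4438, the highest without GNA11 Q209L replicate 2. Of 2464 values of 155 named genes, 2450 kept their direction. These include the genes picked for a wide gap, whose direction the picking nearly fixed. The log2 fold changes that reversed without GNA11 Q209L replicate 1 ranged, with 1 library left out, over Fas -2.77 to 0.45, Cysltr2 -4.33 to 0.0098, Cat -1.53 to 0.36, Tnfsf10 -2.62 to 1.01, Ndufa5 -1.33 to 0.28, Ctss -4.10 to 0.50, H2-DMb1 -2.09 to 0.10, H2-D1 -1.52 to 0.20, Ifi44 -4.20 to 1.17 and Irf8 -2.36 to 0.12. Those that reversed without GNA11 Q209L replicate 2 ranged over Slc7a5 -1.91 to 0.028 and Rab31 -0.85 to 0.21. With the Xist covariate Kcnj13 (-0.23) and Ptp4a3 (-0.00051) reversed. The cause was not tested, beyond the smaller number of samples. Counts of list members with 1 library left out were chosen after seeing the data. No paired analysis was possible because the replicate numbers follow the order of accessions and pair nothing. Low counts limit genes near 3 counts per library.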

Other observations

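Metabolic and housekeeping lists held few differences. None of 49 nuclear oxidative phosphorylation genes had groups without overlap (median log2 fold change -0.20), although Ppargc1a, a coactivator of such genes, stood at 37.4 and 42.3 CPM in GNA11 Q209L and at 2.16 CPM or less in Bap1 KO. Of 49 cytosolic ribosomal protein genes 3 were higher (median 0.14). Of 35 cholesterol and fatty acid genes 2 were higher and 2 lower. Acaca, the first committed enzyme of fatty acid synthesis, stood at 40.5 and 66.0 CPM against 87.8 to 217 CPM. The median of that list was 0.34, -0.17 without GNA11 Q209L replicate 1 and 1.10 without replicate 2.

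Antigen presentation and interferon genes followed GNA11 Q209L replicate 1. None of 21 antigen presentation genes had groups without overlap, and the median log2 fold change was -0.88 with both GNA11 Q209L libraries, 0.20 without replicate 1 and -1.38 without replicate 2. Of 35 interferon genes 4 were lower without overlap (11.4%, against 9.01% of all genes), with medians of -0.64, 0.12 and -1.13. Genes that mark the metastatic class of human uveal melanoma overlapped in all 5 members tested. Of 8 genes high in the other class 3 were lower without overlap, Lmcd1, Mtus1 and Robo1, and Lta4h was higher. Of 26 imprinted genes 2 were higher (7.69%) and 3 lower (11.5%) without overlap, near the shares over all genes (7.57% and 9.01%). Peg3 was lower, at 4.86 and 8.47 CPM against 0.466 to 3.96 CPM.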
